A study of Mus musculus with 4 samples.

Results

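The genes described here encode the proteins of the small subunit of the cytosolic ribosome, and they were measured in lenses of newborn mice that lack Tdrd7 and of wild type mice. They were taken by name, as every listed gene called Rps followed by a digit, or Rpsa, without pseudogenes, the Rps6k kinases, Rps19bp1 and Y-linked genes. The rule found 30 genes among the 10790 in the table, and all 30 passed the filter on low values. The same rule applied to the protein-coding genes of GENCODE M21, an annotation of the GRCm38 mouse genome, found 33, of which Rps6, Rps27 and Rps27rt are not analysed here.

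Ribosomes join amino acids into proteins in the order that an mRNA gives. The small subunit binds the mRNA and reads its codons, while the large subunit forms the peptide bonds. The small subunit is built from 1 ribosomal RNA and a set of proteins, nearly all present as a single copy, that are placed in its head, which swivels over the mRNA path, or in its body and platform, which carry the decoding site and the mRNA exit. Ribosomal protein mRNAs start with a run of pyrimidines, through which the mTOR pathway and Larp1 control their translation. In the lens, epithelial cells become fibre cells that make very large amounts of crystallin and later lose their nuclei, ribosomes and other organelles.

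The Tdrd7 null group held lenses of Tdrd7-/- mice and the control group lenses of wild type mice, all at postnatal day 4, with 2 libraries per genotype and 15 lenses pooled in each. TDRD7 belongs to the Tudor-domain proteins and acts in RNA granules, and mutations of the human gene cause cataract from birth. The Tdrd7 null libraries held 39080159 and 33920522 reads over all genes of the table, and the control libraries 41096488 and 42767535. Values are given as scaled reads. These are the read numbers per gene after division by a factor that is the same for every gene of a library, and gene length is not taken into account. Tdrd7 itself stood at 165 and 96.6 scaled reads in Tdrd7 null lenses and at 1188 and 972 in control lenses (log2 fold change -3.08, SE 0.168, limma adjusted p = 1.17e-06). The targeted gene thus fitted the genotype label in each of the 4 libraries, and the place of the targeted change is not given. All 11 lens markers were measured, crystallins, beaded filament and gap junction genes among them. Of 5 endothelial markers 4 were listed, and they summed to 11.5 and 15.4 scaled reads in Tdrd7 null libraries and to 14.9 and 10.1 in control libraries. Of 4 pericyte markers 3 were listed, with sums of 30.3 and 33.5 in Tdrd7 null libraries and 45.5 and 35.7 in control libraries. No marker of red blood cells, macrophages, retina or iris and ciliary body was among the genes analysed. The part of vessel cells in the results below was not tested. Because whole lenses were used, fewer cells of a type and less RNA per cell cannot be told apart.

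Read numbers of the 30 genes, which also depend on length, spanned more than 2 orders of magnitude within 1 library. Rps3, which lines the entry of the mRNA channel, had the most, at 463 and 467 scaled reads in Tdrd7 null lenses and 415 and 462 in control lenses. Rps13 had the fewest, at 2.47 and 1.29 in Tdrd7 null lenses and 2.20 and 2.22 in control lenses. Its values rested on 93 and 46 reads in the Tdrd7 null libraries and 91 and 94 reads in the control libraries. In all, 24 of the 30 averaged 50 scaled reads or more, and the other 6 were Rps27l, Rps16, Rps27a, Rps12, Rps23 and Rps13.

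**Figure D1:**
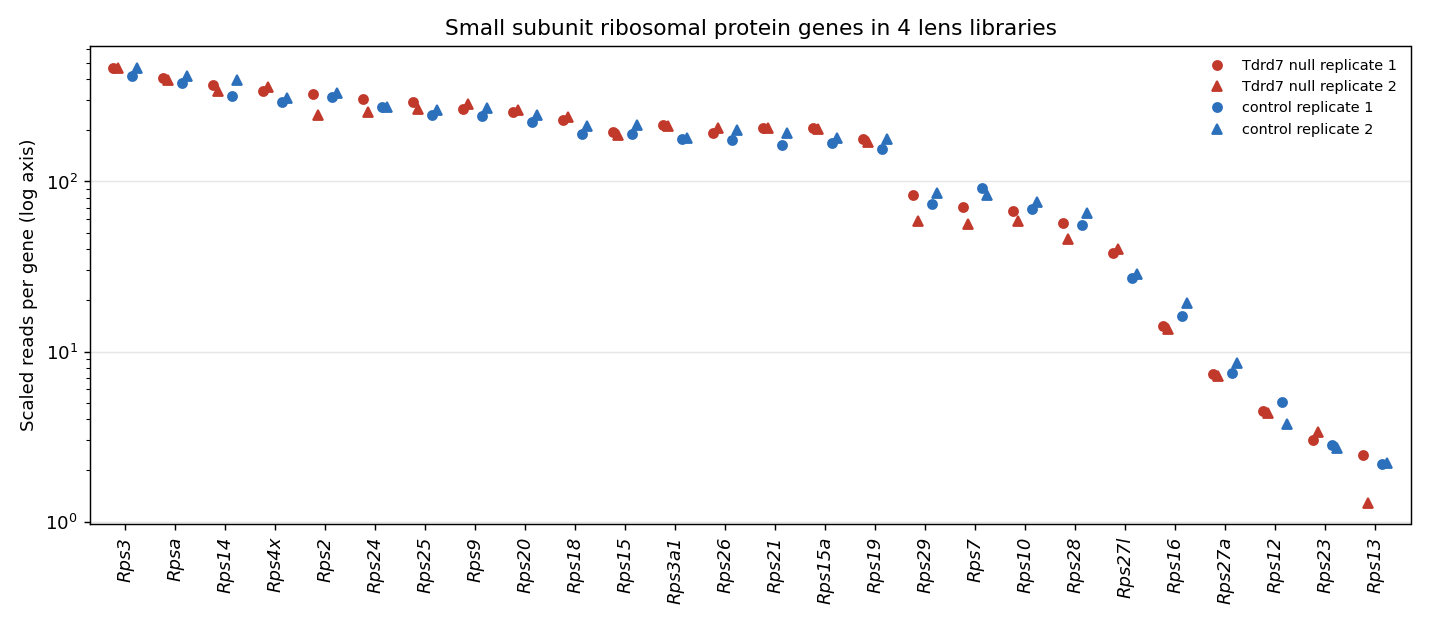
Scaled reads of 26 of the 30 small subunit genes (log axis) in the 2 Tdrd7 null libraries (red, left) and the 2 control libraries (blue, right), ordered by mean level. Genes left of Rps27l average 50 or more, whereas Rps16, Rps27a, Rps12, Rps23 and Rps13 lie below 20.

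Per kilobase of coding sequence, the highest mean over the 4 libraries was that of Rps14, a platform protein, at 786 scaled reads per kb. Rps21 followed at 773, Rps25 at 714, Rps24 at 697 and Rps20 at 693. At the other end, Rps13 had 4.52 scaled reads per kb, Rps23 6.94, Rps12 11.1, Rps27a 16.3 and Rps16 36.0. The proteins of these 5 genes are core parts of the subunit, Rps23 lying at the decoding site, Rps13 and Rps12 in body and head, Rps16 with a tail that reaches the tRNA, and Rps27a being made as a fusion to ubiquitin. The median of the 30 genes was 416 scaled reads per kb.

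Ribosomal protein genes have many processed pseudogenes, which are copies of the mRNA set back into the genome. To see how far reads could belong to several genes, each coding sequence was divided into all windows of 75 nt, the read length. Each window was looked up in every other annotated gene, except genes whose position overlaps that of the gene itself. At least 50% of windows were shared with another gene in 22 of the 30 genes (73.3%), against 3.74% of all tested genes with a coding sequence. The copies lay in 225 other genes, of which 220 are annotated as pseudogenes and 4 as protein-coding. All windows were shared in 7 genes, and these 7 held the 5 with the lowest level per kb, together with Rps28 at 269 and Rps29 at 448 scaled reads per kb. Across the 30 genes the log2 level per kb and the share of copied windows gave Pearson's r = -0.487 and Spearman's rho = -0.576 as a description, with all levels taken from the same 4 libraries. Across 48 large subunit genes the same figures were -0.336 and -0.581. How the authors' counting treated reads that match several places is not stated, and its part in these levels was not tested. Exons of some of these genes also overlap another gene by at least 100 nt, among them Rps27a with Clhc1 (160 nt, other strand), and Rps2, Rps3, Rps12 and Rpsa with small nucleolar RNA genes on the same strand. The levels of genes with copies are therefore uncertain, most of all those of the 7 with no window of their own.

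The windows below show the contrast. Those of Rps13 and Rps12 occur letter for letter in 5 and 17 other genes, and the first 75 coding bases of Rps3 and Rps21 occur in 0. Each is written from the GENCODE M21 coding sequence (GRCm38), and none has a part in capitals because the whole window is copied or not.
Rps13, coding bases 192 to 266: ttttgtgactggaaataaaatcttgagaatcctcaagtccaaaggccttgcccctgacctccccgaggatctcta
Rps12, coding bases 312 to 386: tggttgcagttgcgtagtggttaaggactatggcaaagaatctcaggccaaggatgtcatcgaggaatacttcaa
Rps3, coding bases 1 to 75: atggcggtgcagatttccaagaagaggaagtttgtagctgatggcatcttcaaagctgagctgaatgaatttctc
Rps21, coding bases 1 to 75: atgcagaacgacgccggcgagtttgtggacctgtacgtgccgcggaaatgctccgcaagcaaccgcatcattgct
Rps13-ps2 holds all 379 windows of Rps13, and Rps12l1 and Rps12-ps3 each hold all 322 windows of Rps12. Rps16-ps2 holds all 364 windows of Rps16, Gm14303 all 94 of Rps29 and Gm10443 all 133 of Rps28. Rps3, with 655 windows, shared 0.

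**Figure D2:**
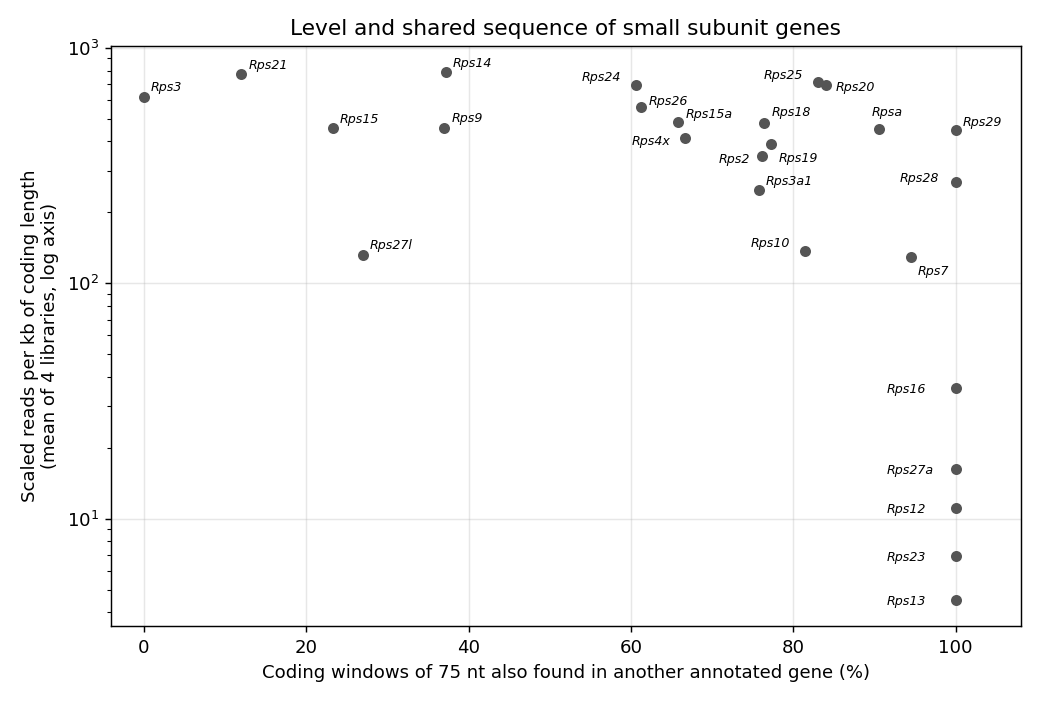
Mean level of 26 of the 30 genes over the 4 libraries, in scaled reads per kb of coding length (log axis), against the percentage of its 75-nt coding windows that also occur in another annotated gene. The 5 lowest genes all sit at 100%, beside Rps28 and Rps29 at 269 and 448 scaled reads per kb.

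Between genotypes, 7 of the 30 genes were higher in Tdrd7 null lenses and 2 were lower, and 21 were not called (limma on log2(scaled reads + 1), Benjamini-Hochberg adjusted p under 0.05 over 10696 genes). The higher ones included Rps27l, Rps3a1, Rps15a, Rps21, Rps18 and Rps4x, and the lower ones Rps7 and Rps16. Of the small subunit genes 30% were called, against 18.0% of all tested genes, 10.1% being higher and 7.88% lower. Calls were more frequent among genes with many reads: from an average of 50 scaled reads up, 29.2% of 24 small subunit genes and 35.1% of 1489 genes were called. The share of small subunit genes called was thus not above that of other genes with many reads. The changes were small, from -0.47 to 0.47 on the log2 scale, with a median of 0.03 beside -0.01 for all tested genes. That median turned to -0.01 when the libraries were scaled to equal totals without crystallins, under which 6 were called higher and 3 lower, Rps10 being gained as lower and Rps21 lost. For all genes the same scaling gave 766 higher and 1262 lower, against 1077 and 843 as deposited.

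The Tdrd7 null libraries did not overlap the control libraries in 16 of the 30 genes. They lay above both control libraries in 11, against 30.2% of all tested genes, and below both in 5, against 31.3% of all tested genes. From an average of 50 scaled reads up, they lay above in 9 and below in 3 of 24 small subunit genes. Among all 1489 genes of that level these counts were 701 and 382. In the other 14 genes the groups overlapped. With 2 libraries on each side, the smallest p of an exact permutation test is 0.333, so the calls rest on the spread that limma borrows from other genes. The p-values measure the spread between pools of lenses.

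The result depended on single libraries. Without control replicate 1 only Rps27l and Rps16 were called, 1 higher and 1 lower, and among all tested genes the calls fell to 293 higher and 138 lower. Without Tdrd7 null replicate 2, 4 were higher and 1 lower, and among all tested genes 520 and 391. Without control replicate 2, 6 were higher and 1 lower, and among all tested genes 332 and 186. Without Tdrd7 null replicate 1 the 7 higher calls remained and 8 genes were lower, among them Rps7, Rps16, Rps10, Rps28, Rps29, Rps2 and Rps13, beside 1166 higher and 1030 lower among all tested genes. A prior without the intensity trend called 0 of 30, with 7 higher and 2 lower at an unadjusted p under 0.05, whereas the robust prior called 7 higher and 3 lower.

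**Figure D3:**
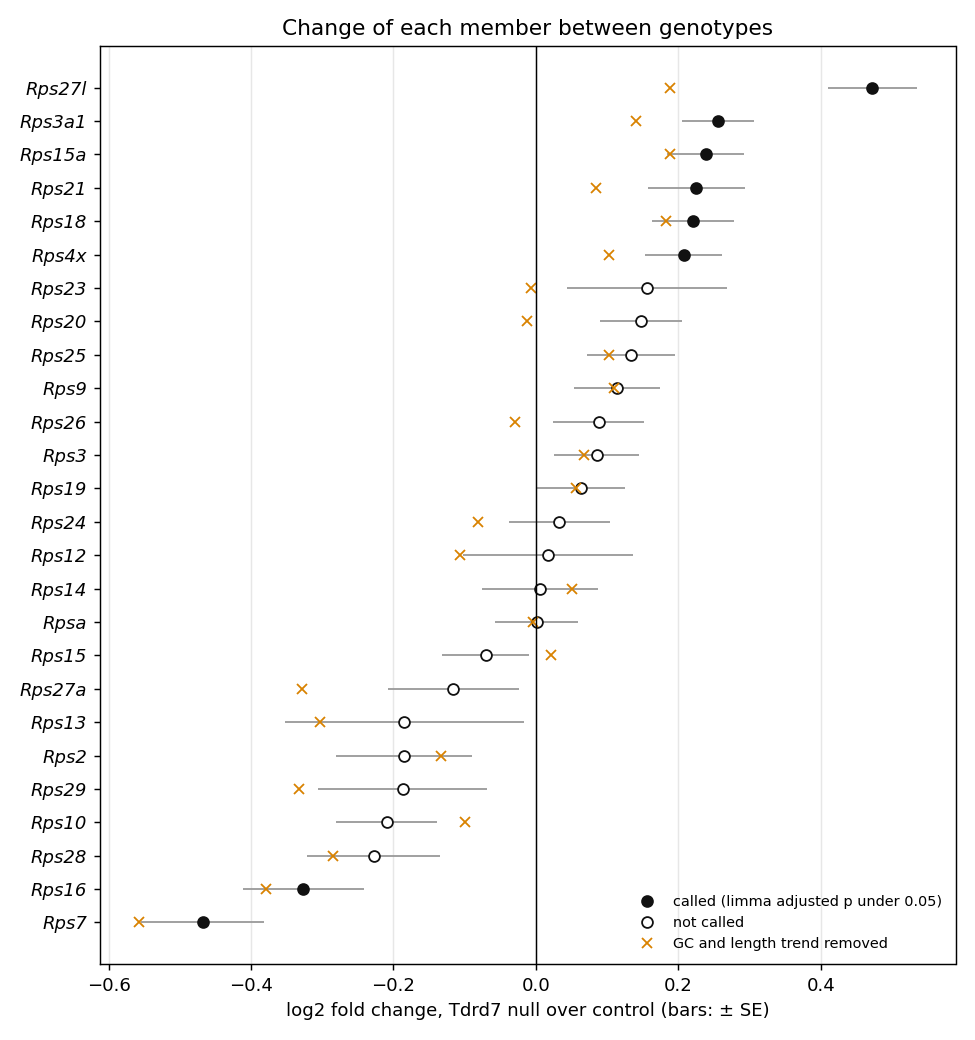
Log2 fold change of 26 of the 30 genes, Tdrd7 null over control, with bars of ± SE from limma (filled, adjusted p under 0.05; open, not called), and the value after removal of the trend on GC content and length (orange crosses). Rps27l stands highest at 0.47 and at 0.19 after the removal, and Rps7 lowest at -0.47 and -0.56.

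Rps27l showed the largest increase of the 30. It encodes a close relative of Rps27 and is known in human and mouse cells as a target of p53. The gene (ENSMUSG00000036781) lies on chromosome 9 from 66946086 to 66949516. It stood at 37.9 and 39.96 scaled reads in Tdrd7 null lenses and at 27.1 and 28.5 in control lenses. Both Tdrd7 null libraries were above both control libraries, by more than replicates differed. The fitted change, on scaled reads + 1, was an increase of 38.7% (log2 fold change 0.47, SE 0.0623, limma adjusted p = 0.000994). The call held in 12 of 14 alternative settings. It was lost with the GC and length trend removed (0.19, adjusted p = 0.0834, the highest) and without the intensity trend (adjusted p = 0.0510). Of the 14, scaling by trimmed means (TMM) left the deposited values of every library as they were and repeated the main fit, here and below. The lowest limma adjusted p, 4.03e-08, came with a replicate block, although replicate numbers do not pair the samples. That block also began the ranges below, except that of Rps4x.

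The coding sequence of Rps27l differs from that of its relative Rps27, which is not analysed here, and the letters show by how much. Over 252 coding bases the pair had 192 in common and 60 different, an identity of 76.2%. The first 75 bases of both are given with the 22 that differ in capitals (GENCODE M21, GRCm38).
Rps27l, coding bases 1 to 75: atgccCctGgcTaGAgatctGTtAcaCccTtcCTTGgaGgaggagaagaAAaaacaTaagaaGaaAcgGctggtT
Rps27, coding bases 1 to 75: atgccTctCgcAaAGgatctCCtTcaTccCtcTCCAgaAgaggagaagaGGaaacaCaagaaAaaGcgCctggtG
Of the 178 coding windows of Rps27l, 48 (27.0%) occur in other genes, of which there were 3. The window printed for Rps27l occurs in 0 other genes.

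Among the body and platform genes, 15 of 17 were measured, and 5 were higher and 1 lower (40% called), with a median log2 fold change of 0.09. This stands beside 18.0% of all tested genes and 35.1% of genes averaging 50 scaled reads or more. Rps3a1, which lies by the mRNA exit where initiation factors bind, had 216 and 212 scaled reads in Tdrd7 null lenses and 178 and 180 in control lenses. Its replicates lay close together, and the groups stood well apart. The fitted change was an increase of 19.4% in Tdrd7 null lenses (log2 fold change 0.26, SE 0.0504, limma adjusted p = 0.00587). The gene lies on chromosome 3 from 86137940 to 86142702, and 75.8% of its windows have copies. Its call held in 11 of 14 alternatives and was lost with the GC and length trend removed (0.14, adjusted p = 0.114), without control replicate 1 (0.24, adjusted p = 0.0604) and without the intensity trend (adjusted p = 0.0738), in a range from 0.00267.

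Rps15a, which binds the ribosomal RNA of the body early in assembly, had 208 and 202 scaled reads in Tdrd7 null lenses and 168 and 180 in control lenses. Here too both Tdrd7 null libraries exceeded both control libraries (log2 fold change 0.24, SE 0.0540, limma adjusted p = 0.0111). Rps15a lies on chromosome 7 from 118104378 to 118116186. It held in 11 of 14 alternatives, and lost the call with the GC and length trend removed (0.19, adjusted p = 0.0679), without control replicate 1 (0.19, adjusted p = 0.115) and without the intensity trend, its adjusted p ranging from 0.00534.

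Rps4x, the X-linked body protein, had 341 and 358 scaled reads in Tdrd7 null lenses and 295 and 310 in control lenses. The lowest Tdrd7 null value was above the highest control value (log2 fold change 0.21, SE 0.0544, limma adjusted p = 0.0209). The gene spans 102184941 to 102189394 on chromosome X. The call held in 9 of 14 alternatives, with adjusted p from 0.0130 to 0.258, the highest being with the GC and length trend removed (0.10). It was lost without the intensity trend, without Tdrd7 null replicate 2 (0.17) and without either control replicate (0.17 without the first, 0.24 without the second).

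Rps21, a small protein that sits beside Rpsa, had 207 and 207 scaled reads in Tdrd7 null lenses and 163 and 192 in control lenses. The control libraries differed from each other by 0.24 on the log2 scale, as much as the genotypes did (log2 fold change 0.23, SE 0.0680, limma adjusted p = 0.0368). Without control replicate 1 the change was 0.11 (adjusted p = 0.339), and with the GC and length trend removed it was 0.08 (adjusted p = 0.372, the highest of the range from 0.00917). It held in 9 of 14 alternatives, and was also lost without Tdrd7 null replicate 2 (0.23, adjusted p = 0.0723), without the intensity trend and with equal totals without crystallins. The gene lies on chromosome 2 from 180257377 to 180258445, and 21 of its 175 windows have copies.

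Rps7 had the largest decrease of the 30. The protein lies in the body, is needed to process the small subunit RNA, and binds Mdm2, a regulator of p53. It had 70.5 and 56.0 scaled reads in Tdrd7 null lenses and 91.2 and 83.5 in control lenses. Both Tdrd7 null values were below both control values, although the Tdrd7 null pair differed by 0.33 on the log2 scale. The mean fell by 27.7% (log2 fold change -0.47, SE 0.0862, limma adjusted p = 0.00446). With the GC and length trend removed it was -0.56 (adjusted p = 0.00641). Rps7 held in 12 of 14 alternatives, and lost the call without control replicate 1 (-0.41) and without the intensity trend. The lowest limma adjusted p, 2.16e-09, came with the replicate block, and the highest, 0.0695, without the intensity trend. The gene (ENSMUSG00000061477) lies on chromosome 12 from 28630847 to 28635953, and 94.5% of its windows have a copy in at least 1 of 11 other genes.

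All 14 head genes were measured, with 1 higher, 1 lower (14.3% called) and a median log2 fold change of -0.04. The share called stands beside 18.0% of all tested genes and 35.1% of genes averaging 50 scaled reads or more. The difference between head and body was not tested. Rps18, which forms a bridge to the large subunit, had 230 and 238 scaled reads in Tdrd7 null lenses and 191 and 211 in control lenses. The groups did not overlap (log2 fold change 0.22, SE 0.0579, limma adjusted p = 0.0212). Rps18 lies on chromosome 17 from 33951999 to 33956001, where 156 nt of its exons overlap those of Vps52 on the other strand, and the library kit does not mark strand. The call held in 10 of 14 alternatives, and was lost with the GC and length trend removed (0.18, adjusted p = 0.0581), without the intensity trend, without Tdrd7 null replicate 2 (0.20, adjusted p = 0.0781) and without control replicate 1 (0.15, adjusted p = 0.199), in a range from 0.0116.

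Rps16 had 14.1 and 13.6 scaled reads in Tdrd7 null lenses and 16.1 and 19.2 in control lenses. These values rested on 529 and 484 reads in the Tdrd7 null libraries and 669 and 813 in the control libraries. Both Tdrd7 null values were below both control values (log2 fold change -0.33, SE 0.0845, limma adjusted p = 0.0200), and with the GC and length trend removed the change was -0.38 (adjusted p = 0.0159). Rps16 lies on chromosome 7 from 28350652 to 28352696. All of its coding windows also occur in Rps16-ps2, which is among 3 other genes that hold at least some of them. What share of its reads came from Rps16 is therefore uncertain. The call held in 11 of 14 alternatives and was lost without Tdrd7 null replicate 2 (-0.30), without control replicate 2 (-0.21) and without the intensity trend. The range of adjusted p began at 0.00218.

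Of the 21 genes not called, the largest differences belonged to Rps28, Rps10, Rps29, Rps2, Rps13 and Rps23. Rps28, a small protein at the mRNA exit, had 57.1 and 45.6 scaled reads in Tdrd7 null lenses and 55.4 and 64.9 in control lenses (log2 fold change -0.23, limma adjusted p = 0.108). Rps29, a zinc-binding head protein, had 83.1 and 58.6 in Tdrd7 null lenses and 73.8 and 85.8 in control lenses (-0.19, limma adjusted p = 0.294). In both, Tdrd7 null replicate 2 was the lowest of the 4 libraries while Tdrd7 null replicate 1 lay between the controls. Rps2, at the mRNA entry, had 327 and 247 in Tdrd7 null lenses and 316 and 331 in control lenses (-0.19, limma adjusted p = 0.196), again with only Tdrd7 null replicate 2 set apart. Rps10, a head protein that is modified with ubiquitin when ribosomes collide, had 67.3 and 58.5 in Tdrd7 null lenses and 69.3 and 76.2 in control lenses (-0.21, limma adjusted p = 0.0573). The Rps10 groups did not overlap, and its exons share 475 nt with the annotated read-through gene RPS10-NUDT3. Rps13 differed by -0.18 (limma adjusted p = 0.473) and Rps23 by 0.16 (limma adjusted p = 0.360) at levels below 5 scaled reads. Without Tdrd7 null replicate 1, Rps28 (-0.39, adjusted p = 0.00326), Rps29 (-0.44, adjusted p = 0.00106), Rps2 (-0.39, adjusted p = 0.000488), Rps10 (-0.31, adjusted p = 0.00663) and Rps13 (-0.48, adjusted p = 0.0259) passed the test. Without Tdrd7 null replicate 2 none of these 5 was called, and the changes were -0.07 for Rps28, 0.06 for Rps29, 0.02 for Rps2, -0.11 for Rps10 and 0.11 for Rps13 (adjusted p = 0.653, 0.680, 0.897, 0.380 and 0.667).

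Of the 5 genes with the highest level per kb, Rps21 alone was called. Rps14 had 369 and 343 scaled reads in Tdrd7 null lenses and 319 and 394 in control lenses, its control libraries standing on either side of the Tdrd7 null ones (log2 fold change 0.01, limma adjusted p = 0.972). Rps24, also in the body, had 307 and 257 in Tdrd7 null lenses and 274 and 275 in control lenses (0.03, limma adjusted p = 0.784). Rps25, a head protein that some viral mRNAs need for translation, had 294 and 266 in Tdrd7 null lenses and 245 and 264.9 in control lenses (0.13, limma adjusted p = 0.149). Its exons overlap 462 nt of Trappc4 on the other strand. Rps20 had 255.6 and 264 in Tdrd7 null lenses and 224 and 245 in control lenses (0.15, limma adjusted p = 0.0897), with no overlap between groups. Rpsa was the nearest to no difference among the 30. Rpsa, a platform protein also known as the laminin receptor precursor, had 404 and 395 in Tdrd7 null lenses and 380 and 418 in control lenses (0.00, SE 0.0581, from a fitted value of 0.00138).

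In humans, mutations of several of these genes cause Diamond-Blackfan anaemia, a failure of red cell production. Of 9 such genes listed, 8 were measured, and 0 were higher and 1, Rps7, lower, beside 10.1% and 7.88% of all tested genes. At an unadjusted p under 0.05, limma gave 0 higher and 4 lower of these 8, and 9 higher and 5 lower of the 30. The share of all tested genes at that p is not given here. The robust prior called Rps10 besides Rps7, and 1183 genes higher and 964 lower among all tested. The median log2 fold change of the 8 was -0.16. In 3 of the 8 the Tdrd7 null libraries lay below both control libraries, against 31.3% of all tested genes. Rps7 and Rps10 were among the 3. Rps19, the first gene linked to the disease, had 177 and 170 scaled reads in Tdrd7 null lenses and 156 and 177 in control lenses (0.06, limma adjusted p = 0.516). Rps26, at the mRNA exit, had 193 and 205 in Tdrd7 null lenses and 176 and 200 in control lenses (0.09, limma adjusted p = 0.361). In 7 of the 8, Tdrd7 null replicate 2 was below Tdrd7 null replicate 1, with a median difference of -0.23. Tdrd7 null replicate 2 was above replicate 1 in 12.5% of the 8, 33.3% of the 30 and 51.4% of all tested genes.

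Replicates of the same genotype also differed in the small subunit genes. Tdrd7 null replicate 2 was above Tdrd7 null replicate 1 in 10 of 30 genes (33.3%), against 51.4% of all tested genes, with a median difference of -0.03 on the log2 scale. Control replicate 2 was above control replicate 1 in 27 of 30 (90%), against 50.1% of all tested genes, with a median difference of 0.13 against 0.000147 for all tested genes. The exceptions were Rps7, Rps12 and Rps23. The 48 large subunit genes had medians of -0.08 between the Tdrd7 null replicates and 0.11 between the control replicates. The median difference between genotypes, 0.03, was smaller than that between the control replicates. The genotype difference is between means of 2 libraries and the replicate difference between single libraries, which vary more, so their sizes are not directly comparable.

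**Figure D4:**
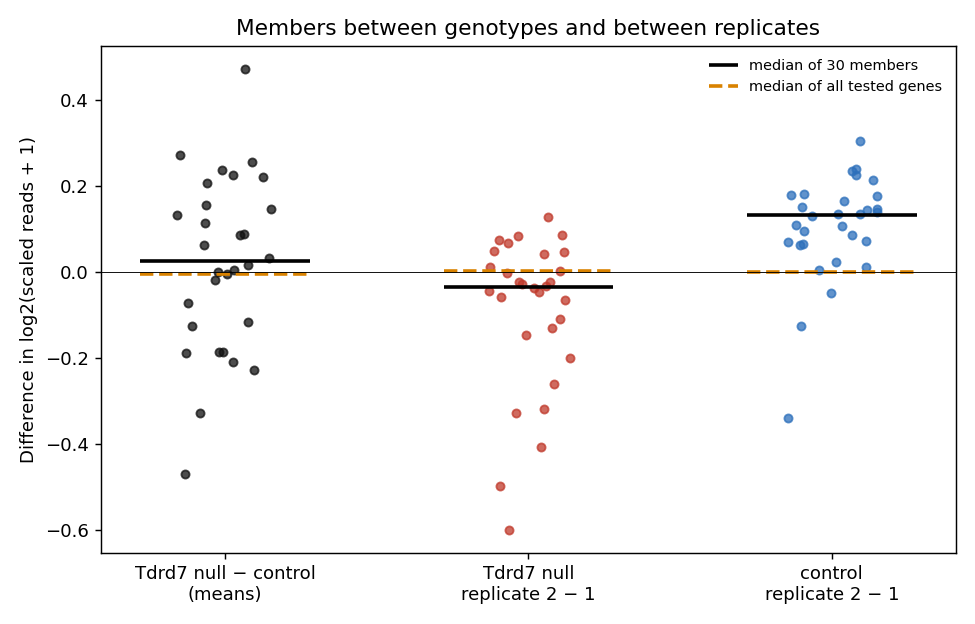
Differences in log2(scaled reads + 1) for the 30 genes (points, spread sideways at random) between genotype means, between the Tdrd7 null replicates and between the control replicates, with the median of the 30 genes (black) and of all tested genes (dashed orange). The control replicates have a median of 0.13, beside 0.03 between genotypes, where means of 2 libraries are compared in place of single libraries.

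The summed level of the 30 genes was 5627 and 5400 scaled reads in Tdrd7 null lenses and 5051 and 5523 in control lenses. As a share of all scaled reads this was 0.541% and 0.565% in Tdrd7 null lenses and 0.509% and 0.546% in control lenses. The means, 0.553% ± 0.0171 in Tdrd7 null and 0.528% ± 0.0258 in control lenses (SD, n = 2 each), differed by about the spread between replicates, and the groups overlapped (exact permutation test, two-sided, p = 0.667). Crystallins took 62.9% and 59.7% of scaled reads in Tdrd7 null lenses and 62.3% and 62.95% in control lenses. Outside crystallins the 30 genes held 1.46% and 1.40% in Tdrd7 null lenses and 1.35% and 1.47% in control lenses, which also overlapped.

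Across all genes, the change between genotypes moved with base composition. Over the 30 small subunit genes, log2 fold change and GC content gave Pearson's r = -0.291 and Spearman's rho = -0.288, and over 10656 genes -0.594 and -0.623, as descriptions of the same 4 libraries. The small subunit genes had median log2 fold changes of 0.03 at a GC content under 45% (5 genes), 0.09 from 45 to 50% (10 genes), 0.00138 from 50 to 55% (11 genes) and -0.13 above 55% (4 genes). All genes had medians of 0.15, 0.03, -0.06 and -0.16 in the same classes. With the trend on GC content and length removed from each library, 1 gene was higher and Rps7 and Rps16 were lower, and the other 6 calls were lost. The background was then 3.29% of genes called, 2.06% higher and 1.24% lower, and the median of the 30 genes was -0.01. What set the trend was not tested.

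**Figure D5:**
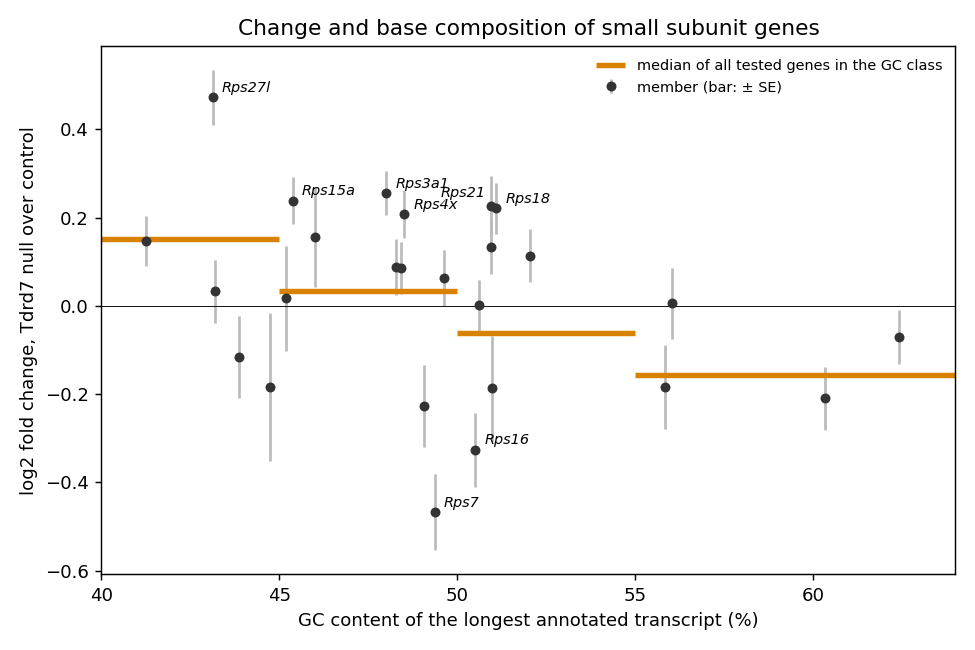
Log2 fold change (Tdrd7 null over control, bars ± SE) of 26 of the 30 genes against GC content of the longest annotated transcript, with the median of all tested genes in each of 4 GC classes (orange). Rps7 at -0.47 lies far from the median of its class, 0.03, while Rps27l at 0.47 lies in the class with a median of 0.15.

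The starts of these genes were examined for the pyrimidine run that ribosomal protein mRNAs are known for. RefSeq start windows (GRCm38.p6) matched 22 of the 30 genes, with 27 windows. A run of at least 8 pyrimidines within 15 bases of the annotated start was found in 7 of the 27 windows (25.9%), against 12% of 32851 windows of all genes. The 7 windows belonged to Rps15a, Rps18 and Rps27l, called higher, and to Rps10, Rps9, Rps24 and Rps26, not called. The windows of the called genes with the run and of Rps10, which has the longest, are shown. Beside them stand those of Rps3a1, called higher, and Rps7, called lower, whose longest runs are under 8 bases. The runs of Rps15a and Rps27l lie wholly before the annotated start. Whether these mRNAs begin with a pyrimidine run was not tested. Each has 15 bases before the start and 15 from it, with the longest run in capitals.
Rps15a (chr7:118116133-118116162, minus strand): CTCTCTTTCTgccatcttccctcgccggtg
Rps18 (chr17:33955651-33955680, minus strand): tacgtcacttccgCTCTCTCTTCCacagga
Rps10 (chr17:27635230-27635259, minus strand): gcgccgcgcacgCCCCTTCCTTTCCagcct
Rps27l (chr9:66946071-66946100, plus strand): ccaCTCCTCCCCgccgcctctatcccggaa
Rps3a1 (chr3:86142654-86142683, minus strand): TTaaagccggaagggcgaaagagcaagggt
Rps7 (chr12:28635939-28635968, minus strand): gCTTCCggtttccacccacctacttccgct
The longest runs were 10 bases in Rps15a, 11 in Rps18, 13 in Rps10 and 9 in Rps27l. Of other called genes with a window, the higher Rps3a1, Rps4x and Rps21 had longest runs of 2, 4 and 7 bases, and the lower Rps7 and Rps16 had 5 each. In the whole 300-base windows, CTTTC or its reverse complement GAAAG occurred in 81.5% of the 27 windows against 57.3% of all, and CTTCC or GGAAG in 96.3% against 71.4%. A match is a string of letters and not a site.

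Genes that work with the small subunit were read beside its proteins. Gnb2l1, now called Rack1, a scaffold protein bound to the head, had 533 and 517 scaled reads in Tdrd7 null lenses and 509 and 534 in control lenses (log2 fold change 0.01, limma adjusted p = 0.933). Fau encodes a ubiquitin-like protein fused to a small subunit protein, and had 10.1 and 9.09 in Tdrd7 null lenses and 12.5 and 12.3 in control lenses (-0.34, limma adjusted p = 0.0157). Fau was lower with no overlap, like the called Rps7 and Rps16, and all of its coding windows also occur in another gene. It was not called with the GC and length trend removed (-0.25, adjusted p = 0.120) or without Tdrd7 null replicate 2 or either control replicate.

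Of 58 genes for assembly of the small subunit, 53 were tested, and 9 were higher and 1 lower, or 18.9% called beside 18.0% of all tested genes, with a median log2 fold change of 0.06. Riok3, a kinase of late maturation, had 239 and 250 scaled reads in Tdrd7 null lenses and 197 and 197 in control lenses (log2 fold change 0.31, limma adjusted p = 0.00282). Utp18 and Esf1, of the nucleolar processing machinery, and Nop58, a core protein of the particles that methylate ribosomal RNA, were higher by 0.33, 0.37 and 0.28 (limma adjusted p = 0.00611, 0.00703 and 0.00984). Of these 4, Riok3 alone kept its call with each library left out. Nop58 lost it without Tdrd7 null replicate 2 or either control replicate (0.24, 0.28 and 0.28, adjusted p = 0.0633, 0.0688 and 0.0697), Utp18 without control replicate 1 (0.28, adjusted p = 0.0716) and Esf1 without control replicate 2 (0.29, adjusted p = 0.0853). With the GC and length trend removed none of these 4 was called, and the list had 1 higher, Fbl, and 1 lower, Abt1, both chosen after their values were seen. Of 25 genes for the S6 kinases and control of pyrimidine-run mRNAs, 22 were tested, and 6 were higher and 1 lower. That is 31.8% called beside 18.0% of all tested genes, of which 10.1% were higher and 7.88% lower. The list had a median log2 fold change of -0.07. Rps6kb1, the kinase that phosphorylates the small subunit protein Rps6, had 31.1 and 30.1 scaled reads in Tdrd7 null lenses and 24.5 and 23.5 in control lenses (0.34, limma adjusted p = 0.00449). Cnbp and Larp4, which bind mRNA, were higher by 0.23 and 0.24 (limma adjusted p = 0.00992 and 0.0200), and Rptor, a subunit of mTOR complex 1, was lower (-0.26, limma adjusted p = 0.0116). Without control replicate 2 none of these 4 was called (adjusted p = 0.0521 for Rps6kb1, 0.0603 for Cnbp, 0.138 for Larp4 and 0.0781 for Rptor). Without control replicate 1 Cnbp (adjusted p = 0.0833), Larp4 (0.0847) and Rptor (0.0792) lost the call, and without Tdrd7 null replicate 2 Larp4 (0.165) and Rptor (0.0524) did. With the trend removed limma called 0 of the second list in either direction, with 3 higher and 1 lower at an unadjusted p under 0.05.

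The 48 large subunit genes, treated the same way, had 11 higher and 8 lower, or 39.6% called, against 18.0% of all tested genes and 35.1% of genes averaging 50 scaled reads or more, with a median log2 fold change of 0.06 and a range from -0.86 to 0.68. Their share of scaled reads was 0.718% and 0.765% in Tdrd7 null lenses and 0.672% and 0.718% in control lenses (exact permutation test, two-sided, p = 0.667). With the GC and length trend removed 1 small subunit gene was higher and 2 were lower, beside 4 and 5 of the large subunit genes and 3.29% of all genes called. The difference between the 2 sets was not tested.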

How the data were processed

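RNA of whole lenses was sequenced in 4 libraries, 2 per genotype. Per the labels, small RNA was removed and polyadenylated RNA was made into libraries with a kit that does not mark strand, read from both ends for 75 nt. Per the submitters' processing notes, TopHat2 2.0.9, Trimmomatic, Cuffnorm and Cufflinks were used, on genome build GRCm38 (mm10). Which step counted and scaled the reads was not given in these sources. The authors deposited 1 signal value per gene and library. Each value was within 0.001 of a whole multiple of a step shared by the library, 0.0266 and 0.0282 in Tdrd7 null and 0.0241 and 0.0237 in control replicates 1 and 2, so the values are read numbers divided by 1 factor per library. In every listed gene the highest value was at least 1.017. All columns of values belonged to samples of the series.

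Values were tested as log2(scaled reads + 1) for 10696 genes with a mean of at least 1. That scale understates changes of low genes. limma 3.58.1 (R 4.3.3) was used with an intensity-trended prior (2 residual and 11.1 prior degrees of freedom), two-sided, with Benjamini-Hochberg adjustment. Exact permutation tests were run in Python 3.11.15. GC content came from the longest transcript in GENCODE M21, and 10750 of 10790 genes matched. Its trend and that of log2 length were removed with natural splines (5 degrees of freedom per term). The fit was tested on simulated data that had no trend on GC content and no shifts of single libraries. That test therefore does not show how the fit handles either of these.

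The named genes are all called small subunit genes, the 6 uncalled ones with the largest fold change, the 5 with the highest level per kb, Gnb2l1, Fau, and up to 4 called genes of each related list by smallest p. Some genes that this rule takes are not reported here. The members and lists were chosen with earlier results of these data known. Alternatives covered pseudocounts, filters, scalings, priors, the replicate block, each library left out, and GC content with length.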

Additional observations from a re-analysis of the deposited data

How the results depend on the processing

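Without the intensity trend, limma called 0 small subunit genes higher and 0 lower, and 9 genes higher and 7 lower of all tested. With the trend on GC content and length removed, the calls were 1 higher among small subunit genes and 219 higher and 132 lower among all genes. Leaving out 1 library at a time, where the lone library of a genotype is assumed to vary like the others, gave 1 to 7 higher and 1 to 8 lower among small subunit genes, 293 to 1166 higher and 138 to 1030 lower among all genes, and a median log2 fold change of -0.015 to 0.10. Replicate numbers do not pair the samples (correlation of same-numbered deviations -0.151). The replicate block gave 7 higher and 6 lower small subunit genes, and 1144 higher and 973 lower genes in all. A crossed pairing, chosen after seeing the data, gave 7 lower small subunit genes, and 1628 higher and 1408 lower genes in all. Pseudocounts, filters and the robust prior left the counts within 1.5 times those reported, and no call was reversed. The deposited values were already on the TMM scale, with a remaining factor of 1 in every library. The TMM setting therefore repeated the main fit and could not change a call. edgeR and DESeq2 were planned on recovered reads and not run, since a check of units did not accept the scaled values as whole reads. The cause of these shifts was not tested. There were 2 libraries per genotype, and Rps13 rested on 46 to 94 reads per library.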
